A study of Saccharomyces cerevisiae with 2 samples.

Results

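The de novo purine synthesis enzymes of budding yeast (Saccharomyces cerevisiae) assemble the purine ring step by step on ribose phosphate and end in inosine monophosphate (IMP) and adenosine monophosphate (AMP). The list held 10 genes, chosen by name: ADE4, ADE5,7, ADE8, ADE6, ADE2, ADE1, ADE13, ADE16, ADE17 and ADE12, given here in pathway order. A gene was measured if a probe set of the array was annotated to it and to no other gene. This held for 9 of the 10 listed genes, with 1 probe set each, out of 5656 genes measured in this way. ADE5,7, whose product carries 2 activities of the pathway, was not named by a probe set in the annotation used here and was not analysed here. A probe set shared by ADE6 and 3 other genes read 0.432 on replicate 2 and 0.384 on replicate 1, and was not used.

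RNA came from 2 replicate cultures of a mutant in which histone H3 carried arginine in place of lysines 4, 36 and 79, the residues methylated by Set1, Set2 and Dot1. Both cultures shared every labelled treatment: growth in selective galactose medium, a move to selective glucose medium, and harvest after 12 h at an optical density of 0.5 to 0.7. Per the series' design text, glucose shut off a wild-type H3 gene, so that mutant H3 remained. All 3 H3 probe sets are annotated to both H3 gene copies and were not assigned to mutant or wild-type transcript, so the shut-off was not checked. The sources used here do not give the strain background, its marker alleles or the adenine content of the medium. Wild-type cells and the other times of the design were not analysed here, so what follows concerns signal in the mutant and the match of its 2 cultures, and no mutant effect is given.

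As background, purine synthesis in yeast is set by supply: when adenine runs short, the transcription factors Bas1 and Pho2 together activate most ADE genes, and Gcn4 adds to this in amino acid starvation. The pathway also touches histidine synthesis, which releases the purine intermediate AICAR, and draws formyl groups from folate one-carbon metabolism. Proliferating cells use its products for RNA and DNA.

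Array signal is given as deposited, an intensity on a linear scale, and errors are SD over the 2 arrays. With 2 arrays, their number sets how precise any value can be. Median signal over all 9335 probe sets was 27.5 on replicate 2 and 28.4 on replicate 1. Background was read from the 9 opposite-strand E. coli control probe sets, which reached 4.07 on replicate 2 and 3.39 on replicate 1. The ACT1 signal ratio of 3' to 5' probe sets was 1.43 on replicate 2 and 1.29 on replicate 1, and the part of RNA quality in the values below was not tested.

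All 9 measured purine synthesis genes gave signal well over the opposite-strand controls on both arrays, from 39.1 to 724 on replicate 2 and from 42.1 to 726 on replicate 1. Their median signal was 389 ± 17.3 (SD, n = 2), beside a median of 41.7 ± 0.382 over all 5656 genes. ADE12 was the middle gene on both arrays, so the members' median and its SD are those of ADE12. Of the 9 genes, 7 lay above the 75th percentile of signal, a level that 25% of all genes exceed by construction. The other 2 were ADE4 and ADE8, whose signal lay above that of 71.4% and 48.9% of all genes. Probe sets differ in how strongly they hybridise, so the levels of different genes are not ranked against each other.

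**Figure D1:**
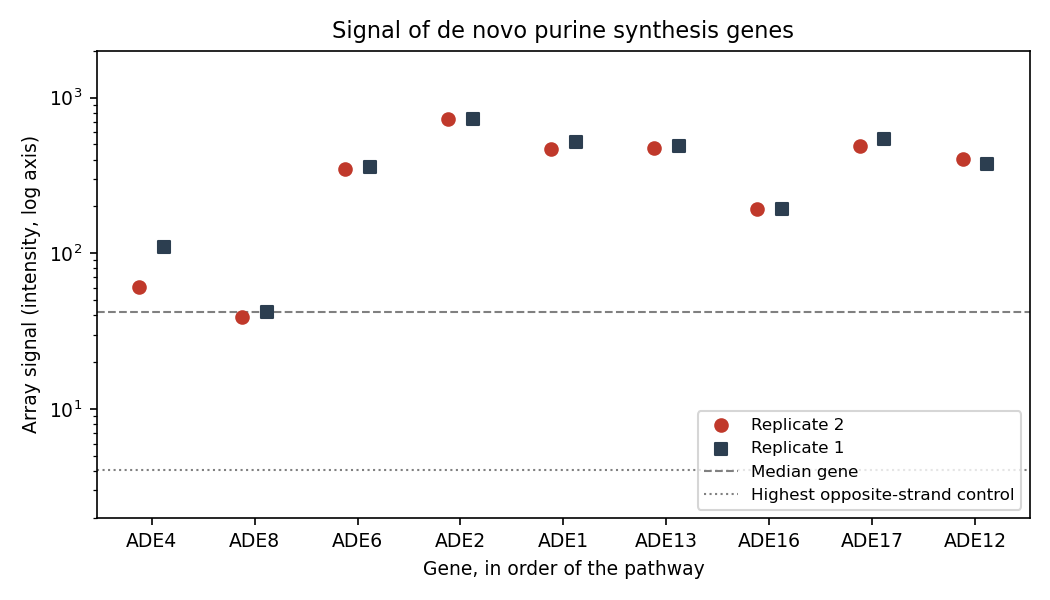
Array signal (intensity, log axis) of the 9 measured purine synthesis genes in pathway order, with a circle for replicate 2 and a square for replicate 1; the dashed line is the median gene and the dotted line the highest opposite-strand control. The points of each gene nearly coincide except for ADE4, at 60.7 on replicate 2 and 110 on replicate 1.

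ADE4 (YMR300C) encodes the amidotransferase that commits phosphoribosyl pyrophosphate (PRPP) to the pathway. Its probe set read 60.7 on replicate 2 and 110 on replicate 1, a mean of 85.6 ± 35.2 (SD, n = 2). It was the member with the widest gap between the cultures.

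ADE8 (YDR408C) encodes the first of the formyl transfer steps, glycinamide ribonucleotide transformylase. It read 39.1 on replicate 2 and 42.1 on replicate 1. ADE6 (YGR061C), which encodes the next enzyme, the amidotransferase that makes formylglycinamidine ribonucleotide, read 348 on replicate 2 and 356 on replicate 1. Both genes were thus close to equal in the 2 cultures.

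ADE2 (YOR128C) encodes the carboxylase of aminoimidazole ribonucleotide, the intermediate that turns ade2 mutants red when it builds up. It read 724 on replicate 2 and 726 on replicate 1, a mean of 725 ± 1.53 (SD, n = 2). The signal shows transcript that hybridises to this probe set and does not show whether the strain carries a working ADE2 allele. ADE1 (YAR015W) encodes the synthetase of the following step, which makes the intermediate SAICAR. It read 471 on replicate 2 and 519 on replicate 1, a mean of 495 ± 34.3 (SD, n = 2).

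ADE13 (YLR359W) encodes adenylosuccinate lyase, which acts both before IMP and in the last step to AMP. It read 477 on replicate 2 and 490 on replicate 1, a mean of 484 ± 9.05 (SD, n = 2). ADE12 (YNL220W), which encodes the adenylosuccinate synthase that opens the branch from IMP to AMP, read 402 on replicate 2 and 377 on replicate 1. It was the only one of the 9 genes with the higher value on replicate 2 as deposited.

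ADE16 (YLR028C) and ADE17 (YMR120C) encode isozymes of the bifunctional enzyme that makes the last steps to IMP. ADE16 read 192 on replicate 2 and 193 on replicate 1, a mean of 192 ± 1.23 (SD, n = 2). ADE17 read 489 on replicate 2 and 542 on replicate 1, a mean of 516 ± 38.0 (SD, n = 2). Both genes thus gave signal in the same cultures, each from a probe set annotated to it alone. Whether the probe sets cross-hybridise was not tested, and their levels are not compared. In the annotation of the R64 assembly, ADE16 lies beside RPL15A and ADE17 beside RPL15B, a pair of genes for the same ribosomal protein. RPL15A read 594 on replicate 2 and 601 on replicate 1, and RPL15B read 162 and 150 on these arrays.

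The match of the cultures was read from log2 ratios, replicate 2 over replicate 1, with 1 array on each side and therefore no p-value. Ratios were read for the 4243 genes left after removing those whose mean log2 signal fell below the 25th percentile of all genes, a signal of about 19.2, and all 9 members were kept. The median log2 ratio was -0.038 over the 9 members and -0.023 over the 4243 genes, whose SD was 0.20. Of the 9 members, 8 differed by less than 1.2-fold between arrays, beside 89.6% of the 4243 genes, a share near the background. At least 1.2-fold lower on replicate 2 was 1 member, ADE4, beside 6.91% of the genes, and no member was at least 1.2-fold higher, beside 3.46%. The 8 members other than ADE4 had log2 ratios between -0.15 and 0.09, with a median of -0.035. In bulk RNA, fewer cells making a transcript and less transcript per cell cannot be told apart.

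**Figure D2:**
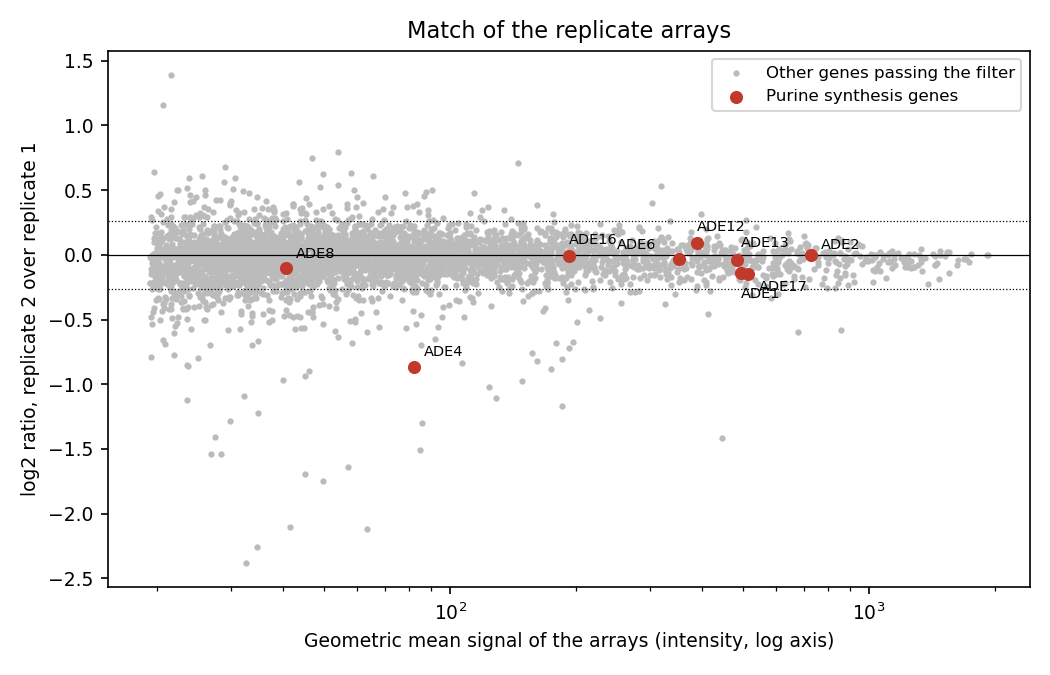
Log2 ratio of replicate 2 over replicate 1 against the geometric mean signal (log axis) for genes that passed the signal filter, in grey, and the 9 purine synthesis genes, in red; dotted lines mark 1.2-fold. ADE4 lies at -0.86 and the other members between -0.15 and 0.09.

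The log2 ratio of ADE4 was -0.86, a 1.82-fold difference. It was at least 1.5-fold lower on replicate 2, as 1.2% of the genes were, and not 2-fold lower, as 0.471% were. Among the 500 genes nearest to ADE4 in signal the central 95% of log2 ratios ran from -0.31 to 0.29, and 2 of the other 499 genes were as low. The genes on either side of ADE4 in the R64 annotation did not share its gap. ATM1 read 37.5 on replicate 2 and 37.6 on replicate 1, YME2 read 80.2 and 82.0, and LIP1 read 202 and 213. DYN3, which lies between LIP1 and ADE4, was under the signal filter, at 7.59 on replicate 2 and 8.25 on replicate 1. Over the 24 kept genes within 2 places of any member, 0 were at least 1.2-fold lower on replicate 2, a share near the 6.91% of all kept genes, and their log2 ratios ran from -0.22 to 0.24.

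Ratios were also set against the numbering of the probe sets; whether that numbering follows their place on the array was not tested. The 20 genes at least 2-fold lower on replicate 2 have probe sets in 2 stretches of the array's numbering, and with a margin of 100 numbers these stretches ran from 6078 to 6694 and from 9234 to 10024. ADE4, ADE13 and ADE17, with probe set numbers 9306, 9983 and 9519, lie inside them. ADE4 and ADE13 do so only through the margin, since the low genes themselves span numbers 9334 to 9924 in the second stretch. Of these members, ADE13 and ADE17 had log2 ratios of -0.04 and -0.15, inside 1.2-fold. The stretches were drawn around the 20 low genes, which are counted inside them and raise the share there. The shares are therefore a description only: 11.7% of 849 kept genes inside and 5.72% of 3394 outside were at least 1.2-fold lower. After subtracting the mean ratio of probe sets 69 to 71 numbers away, the log2 ratio of ADE4 was -0.76. For ADE4 that mean came from 3 probe sets over the signal filter. The same correction took ADE13 from -0.04 to 0.34, past 1.2-fold. The part of probe set numbering in the ADE4 value was not otherwise tested.

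**Figure D3:**
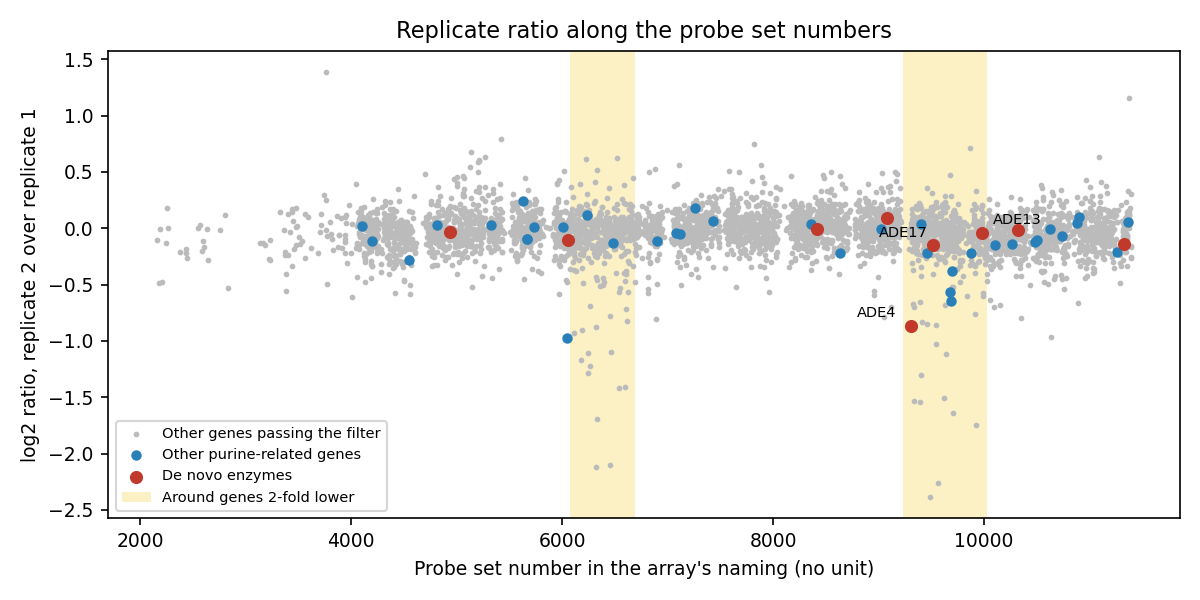
Log2 ratio of replicate 2 over replicate 1 along the probe set numbers for genes that passed the signal filter, with the 9 de novo enzymes in red, other purine-related genes in blue and the 2 stretches around the genes at least 2-fold lower on replicate 2 in yellow; a gene with several probe sets is drawn at 1 of its numbers. Within the stretches, ADE4 lies at -0.86, and ADE17 and ADE13 lie at -0.15 and -0.04.

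The 39 other genes of purine metabolism and its supply were read in 6 lists, and all were measured. In one-carbon supply, which provides the formyl groups, 8 of 8 genes lay within 1.2-fold, beside 89.6% of all kept genes. This list includes ADE3, the folate enzyme gene that is an ADE gene by phenotype, at 470 on replicate 2 and 461 on replicate 1, and the serine hydroxymethyltransferase genes SHM1, at 409 and 422, and SHM2, at 439 and 484. Its median signal was 287 ± 8.62 (SD, n = 2), and its median log2 ratio was -0.074. In the histidine pathway 7 of 7 genes did so, again near that background, with HIS7, whose enzyme releases AICAR, at 154 on replicate 2 and 160 on replicate 1.

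PRPP synthesis, the source of the substrate of Ade4, had 4 of 5 genes within 1.2-fold, near the 89.6% of all kept genes. PRS3 was the exception, at 148 on replicate 2 and 180 on replicate 1, a log2 ratio of -0.28. On the GMP branch, IMD2, IMD3 and IMD4 encode IMP dehydrogenases and GUA1 encodes GMP synthase. Of these 4 genes, 1 was at least 1.2-fold lower on replicate 2, or 25% beside 6.91% of all kept genes. This was IMD4, 1.3-fold lower at 285 against 371, but its 2 probe sets did not move alike, at log2 ratios of 0.10 and -0.85. The probe sets of IMD3, IMD4 and GUA1 lie inside the stretches around the low genes. The IMD2 and IMD3 probe sets are of a type the array marks as shared within a gene family, so their values, 188 and 586 on replicate 2 and 217 and 681 on replicate 1, are uncertain.

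Among the 39 other genes, the widest gaps were those of HPT1, APT1 and AMD1, all in the salvage, interconversion and uptake list. Of 11 kept genes in the salvage, interconversion and uptake list, 3 were at least 1.2-fold lower on replicate 2, or 27.3% beside 6.91% of all kept genes, while the list's median log2 ratio was -0.0047. HPT1, which encodes the hypoxanthine and guanine phosphoribosyltransferase, read 106 on replicate 2 and 208 on replicate 1, a log2 ratio of -0.97. APT1, the adenine phosphoribosyltransferase gene, read 73.7 on replicate 2 and 115 on replicate 1, and AMD1, the AMP deaminase gene, read 36.2 and 53.6 on these arrays. The probe sets of APT1 and AMD1 lie inside the stretches around the low genes, and that of HPT1, number 6050, lies just outside. Of the members and the 39 other genes together, 36.4% of 11 kept genes inside the stretches were at least 1.2-fold lower, and 5.71% of 35 outside. Over all kept genes these shares were 11.7% and 5.72%. The low genes inside were ADE4, there only through the margin, and AMD1, APT1 and IMD4, at numbers 9673, 9688 and 9699. The last 3 thus came from 1 short run of numbers, and IMD4 was low in only 1 of its 2 probe sets. The correction by probe set number applied to ADE4 above would subtract -0.48, a mean of 5 probe sets, from the APT1 log2 ratio of -0.65. It would subtract -0.14 from the HPT1 ratio of -0.97 and -0.04 from the AMD1 ratio of -0.57, from 4 probe sets each. The APT1 gap would thus shrink the most. The part of probe set numbering in the salvage values was not otherwise tested. Other genes of the list were nearly equal, among them the adenosine kinase gene ADO1, at 934 on replicate 2 and 871 on replicate 1, and the purine permease gene FCY2, at 208 and 222.

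**Figure D4:**
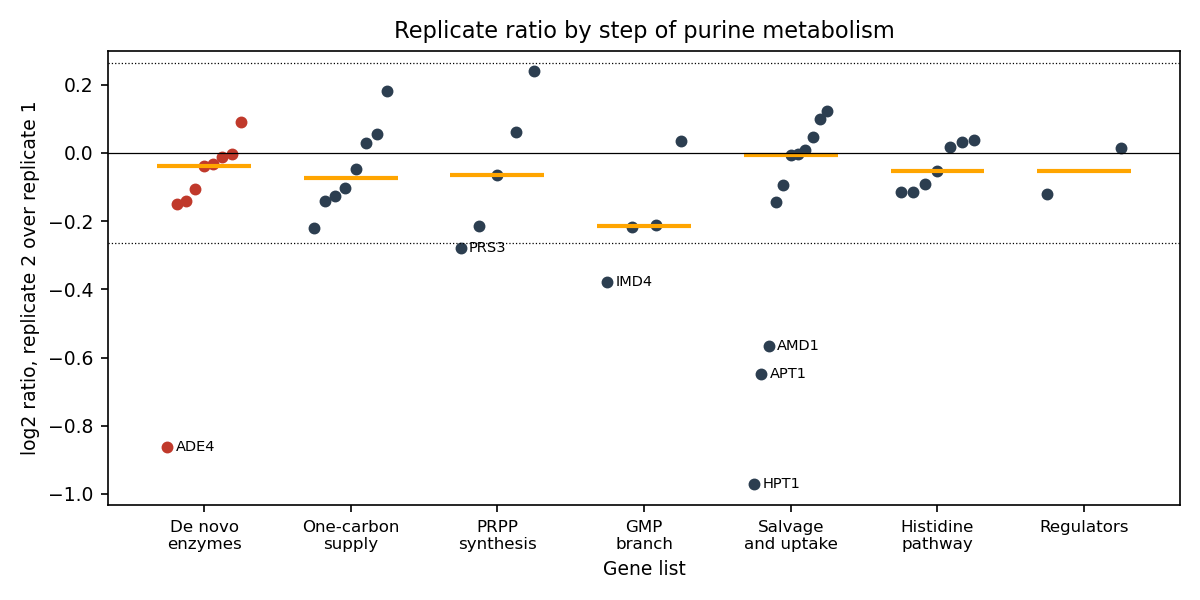
Log2 ratio of replicate 2 over replicate 1 for each kept gene of the de novo enzymes, in red, and of 6 related lists, in dark blue; orange bars are list medians, dotted lines mark 1.2-fold and genes past it are named. ADE4, HPT1, APT1, AMD1, IMD4 and PRS3 are past it, all lower on replicate 2.

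Of the regulators, GCN4 read 676 on replicate 2 and 669 on replicate 1. BAS1 read 26.2 on replicate 2 and 28.5 on replicate 1, a mean of 27.4 ± 1.61 (SD, n = 2). PHO2 was under the signal filter, at 17.3 on replicate 2 and 20.0 on replicate 1. All 3 regulators thus gave signal above the opposite-strand controls in both cultures and differed by less than 1.2-fold. GCN4 is regulated largely at translation, so its transcript signal does not report the amount of Gcn4 protein.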

How the data were processed

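Total RNA of 2 replicate cultures of 1 group was measured on an Affymetrix yeast array each. Per the labels' protocols, roughly 20 ug of RNA gave the biotinylated cRNA. The deposited values are intensity on a linear scale, 1 per probe set, made by the authors with MAS5, as the submitters' processing notes name it. Its version and scaling target are not given in these sources, and detection calls were not used. The cultures are called replicates in the labels.

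Of 9335 probe sets, 60 are controls, 6504 had 1 gene, all matched to RefSeq's R64 table by gene identifier, 328 had several genes and 2443 are unnamed here. Intensities were floored at 0.5 and log2 transformed, and probe sets of a gene were averaged on the log2 scale. ADE5,7 was sought through its RefSeq symbol. No test between groups was made, since there is 1 group. Folds of 1.2, 1.5 and 2 were used as fixed sizes. All members were named, and other genes came from 6 lists of the pathway; flanking genes were taken from the R64 order. The members and lists were chosen with earlier results of these data known. The fold calls were also run on simulated data with less spread between arrays than these data. That run cannot show how often unchanged genes pass 1.2-fold here, and nothing is drawn from it. The planned promoter motif count and protein comparison were not made, as no sequence was used here. Python 3.11.15, numpy 2.4.6, pandas 2.3.3, statsmodels 0.14.6 and matplotlib 3.10.9 were used.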

Additional observations from a re-analysis of the deposited data

How the results depend on the processing

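The median signal of the purine synthesis genes was 390 to 391 under quantile normalization and scaling on poly-A controls. It was 377 to 402, the values of ADE12, when either replicate was left out. Each member has 1 plain probe set, so the brightest probe set and plain probe sets could not change any member value, here or below. The median log2 ratio of the members took either sign: it was 0.041 with quantile normalization and 4.83e-05 with loess, from -0.059 to -0.015 under the other planned settings, and -0.14 as a list mean, chosen after seeing the data, which takes in ADE4. With the 2 stretches of probe set numbers left out, 0 of 6 members were at least 1.2-fold lower, since ADE4 was among those removed. This rests on the margin of 100 numbers: with no margin, chosen after seeing the data, ADE4 stayed and the count was 1 of 8. In the other settings the count stayed at 1, also at 1.5-fold, though the brightest and plain probe set settings could not change it. The ADE4 log2 ratio ran from -0.86 to -0.76 over 8 settings, counting the brightest and plain probe set settings, which could not change it. ADE2, ADE6, ADE13 and ADE16, all inside 1.2-fold as deposited, changed sign in 5, 2, 3 and 3 settings, and ADE13 reached 0.34 with the correction by probe sets 69 to 71 numbers away. No paired analysis was possible because both arrays belong to 1 group. The opposite-strand controls lay far below all members. Other sources of background in the member values were not tested.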
